A study of Homo sapiens with 8 samples.

Results

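The ERBB receptors and their EGF-like ligands were examined in RNA-seq libraries of MDA-MB-231 cells, a triple-negative, ASS1-deficient human breast cancer line. The members were 8 genes chosen by symbol, with earlier results of these data known. They were 3 receptors (EGFR, ERBB2 and ERBB3) and 5 ligands (AREG, EREG, HBEGF, TGFA and NRG1). All 8 were found among the 23393 genes of the read-count table, and all 8 were among the 15262 genes that passed the filter on low counts. The study asked how parental cells and ρ0 cells, which lack mitochondrial DNA, respond to arginine depletion. There were 4 groups of 2 libraries: parental controls, parental cells after 48 h of arginine starvation, ρ0 controls and ρ0 cells after the same starvation. The labels give the starvation as arginine deiminase (ADI), an enzyme that degrades arginine, at 0.3 µg/mL, whereas the paper's text speaks of arginine-starved medium. The ρ0 cells were a single clone, number 27, and per the methods ρ0 cells were kept with sodium pyruvate, uridine and ethidium bromide, the DNA intercalator used to deplete mitochondrial DNA. Line, clone and these additives therefore cannot be told apart in any comparison of ρ0 with parental cells. Transcripts encoded by mitochondrial DNA were not analysed here, so its loss was not checked.

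ERBB receptors are tyrosine kinases of the cell surface that act as dimers. AREG, EREG, HBEGF and TGFA bind EGFR, HBEGF and EREG also bind ERBB4, and NRG1 binds ERBB3 and ERBB4. ERBB2 has no known ligand and serves as a dimer partner, and ERBB3 signals mainly through its partners because its own kinase is weak. The ligands are made as membrane-anchored precursors and are released by ADAM proteases, and the receptors feed the RAS-ERK and PI3K-AKT pathways. High EGFR with low ERBB2 is a known feature of many triple-negative breast cancers.

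AREG and EREG lie next to each other on chromosome 4 and differed more between the lines than the other 6 members, so the 250 bases before the start of each are shown. Both come from RefSeq (GRCh38.p14, plus strand, 5′ to 3′), at chr4:74444886-74445135 for AREG and chr4:74364895-74365144 for EREG. Capitals mark the letters TGACGTCA (the cAMP response element) and TATAAA (the TATA box) in AREG, and TGACG (part of that response element) and TATAAA in EREG.
AREG: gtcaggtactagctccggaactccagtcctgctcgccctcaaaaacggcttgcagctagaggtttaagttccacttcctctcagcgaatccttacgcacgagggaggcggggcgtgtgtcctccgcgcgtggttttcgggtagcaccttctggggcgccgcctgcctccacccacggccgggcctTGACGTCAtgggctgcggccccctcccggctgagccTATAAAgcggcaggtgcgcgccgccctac
EREG: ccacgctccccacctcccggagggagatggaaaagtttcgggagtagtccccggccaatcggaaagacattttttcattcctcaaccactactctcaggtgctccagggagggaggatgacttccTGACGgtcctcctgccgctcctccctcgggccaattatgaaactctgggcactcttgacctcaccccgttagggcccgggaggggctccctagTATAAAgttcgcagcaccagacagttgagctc
TGACGTCA started 65 bases before the AREG start and was found in 1.65% of 35116 RefSeq promoters searched on both strands. TGACG, which is contained in TGACGTCA, started 125 bases before the EREG start and was found in 21.2% of them. TATAAA started 29 and 32 bases before the AREG and EREG starts and was found in 10.7%. TGACG was also found for TGFA, and TATAAA also for EGFR. Among the 6 members with a promoter in the table, TGANTCA (the AP-1 site) was found for EGFR and ERBB2 and in 6.57% of all promoters. TGATGNAA (the amino acid response element) was found for 0 of the 6 and in 3.14% of all promoters. These are matches of letters and no binding was measured.

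The libraries held 25259503 to 31022155 counts. The labels do not say whether the 2 libraries of a group came from separate cultures, so p-values measure only the spread between these libraries. That spread, within each group and as a biological coefficient of variation, was 5.18% for parental controls, 2.25% for starved parental cells and 1.84% for starved ρ0 cells. It was 25.1% for ρ0 controls, so comparisons with ρ0 controls rest on the least even pair. The tests below fit 1 spread per gene over all 4 groups together. Their standard errors and p-values can therefore be too small where ρ0 controls enter and too large elsewhere. Of 4 mesenchymal markers of MDA-MB-231 (VIM, CD44, AXL and CAV1), 4 were higher in ρ0 than in parental control cells. Of 8 luminal and epithelial markers, 6 were tested, of which 5 were higher and 1 was lower in ρ0 cells, in control and in starved medium alike. Over all tested genes the shares higher and lower were 30.5% and 31.8% in control medium and 32.9% and 33.5% after starvation. CDH1, which encodes E-cadherin, had 0 to 2 counts in parental libraries and 104 to 457 in ρ0 libraries, and EPCAM had 0 to 15 and 397 to 697. FOXA1 had 212 to 277 counts in parental libraries and 1 to 4 in ρ0 libraries. The summed luminal and epithelial level was 371 to 386 CPM (read counts relative to library size) in parental controls, 298 to 303 in starved parental cells, 1079 to 1269 in ρ0 controls and 444 to 454 in starved ρ0 cells. The receptor ESR1 had 0 to 6 counts in any library. The summed level of PTPRC, PECAM1 and COL1A1, markers of leukocytes, endothelium and fibroblasts, was 6.25 to 19.4 CPM. The part of these markers in the results below was not tested. CDH1, EPCAM and FOXA1 were thus each nearly absent from the libraries of 1 line and present in the other. The paper describes the ρ0 cells as derived from MDA-MB-231, and the descent of both lines from the same stock was not tested here. Differences between lines below are therefore differences between these libraries.

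ERBB2 and ERBB3 fell with starvation in both lines, and EGFR rose in ρ0 cells and was not called in parental cells. In parental cells 5 of the 8 members were called higher and 2 lower at a Benjamini-Hochberg adjusted p under 0.05 in edgeR's quasi-likelihood test, against 30.4% of all tested genes higher and 35.5% lower. In ρ0 cells 4 of the 8 were called higher and 2 lower, against 19.2% and 22.1%. The members' median log2 fold change was 0.62 in parental and 0.31 in ρ0 cells, beside -0.07 and -0.02 over all tested genes. For the 5 tested family genes outside the members, which had low counts, it was -2.20 and -1.51. Because the members were chosen with earlier results of these data known, their shares and medians are descriptions and not a test of the family. Levels below are CPM scaled by TMM, a factor per library that balances its composition, and fold changes are starved against control with standard errors (SE) and edgeR's adjusted p. These are bulk measurements, in which fewer cells expressing a gene and less mRNA per cell cannot be told apart.

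EGFR, the receptor of 4 of the ligands, was at 677 and 546 CPM in parental controls and at 693 and 654 after starvation. In ρ0 cells it was at 446 and 492 CPM in controls and at 861 and 894 after starvation. The parental groups overlapped, whereas both starved ρ0 libraries lay above the other 6. The log2 fold change was 0.14 (SE 0.12, 95% interval -0.13 to 0.41, adjusted p = 0.317) in parental cells and 0.90 (SE 0.12, adjusted p = 0.00106) in ρ0 cells, which is 0.76 higher in ρ0 cells (SE 0.16, adjusted p = 0.00947 for the interaction by edgeR). Without parental control replicate 2, the lower of that pair, the parental value was -0.01, and without ρ0 control replicate 2 it was 0.18 and was called (adjusted p = 0.0193). It was also 0.18 and called in the fit of the 2 parental groups alone (adjusted p = 0.0297). The interaction was not called without parental starved replicate 2 (adjusted p = 0.0521). The antisense gene EGFR-AS1 had 42 to 82 counts per library and was not called in any comparison, and whether the counting used strand is not stated.

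ERBB2, the partner without a ligand, was at 57.5 and 59.7 CPM in parental controls and at 30.1 and 30.5 after starvation. Values of 86.8 and 86.9 CPM in ρ0 controls stood beside 58.9 and 62.0 in starved ρ0 cells. Starved libraries were below the controls of the same line without overlap, and starved ρ0 cells were close to parental controls. ERBB2 fell by 0.95 on the log2 scale in parental cells (SE 0.08, adjusted p = 3.9e-05 by edgeR) and by 0.52 in ρ0 cells (SE 0.07, adjusted p = 0.00159). The difference of 0.43 between the responses (SE 0.11, adjusted p = 0.0163) was lost when any 1 of parental control replicate 2, either starved parental library or either starved ρ0 library was left out (adjusted p up to 0.0993).

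ERBB3, the main NRG1 receptor, was at 23.1 and 23.2 CPM in parental controls and at 1.98 and 1.74 after starvation. The ρ0 controls were at 3.82 and 4.12 CPM and the starved ρ0 libraries at 1.72 and 1.62. The 2 parental controls stood far above the other 6 libraries, and the lowest values were those of starved cells of either line. ERBB3 fell by 3.64 on the log2 scale in parental cells (SE 0.15, adjusted p = 6.6e-06 by edgeR), the largest change of any member in either starvation comparison. In ρ0 cells it fell by 1.24 (SE 0.15, adjusted p = 8.4e-04), and the responses differed by 2.39 (SE 0.21, adjusted p = 4.06e-04).

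**Figure D1:**
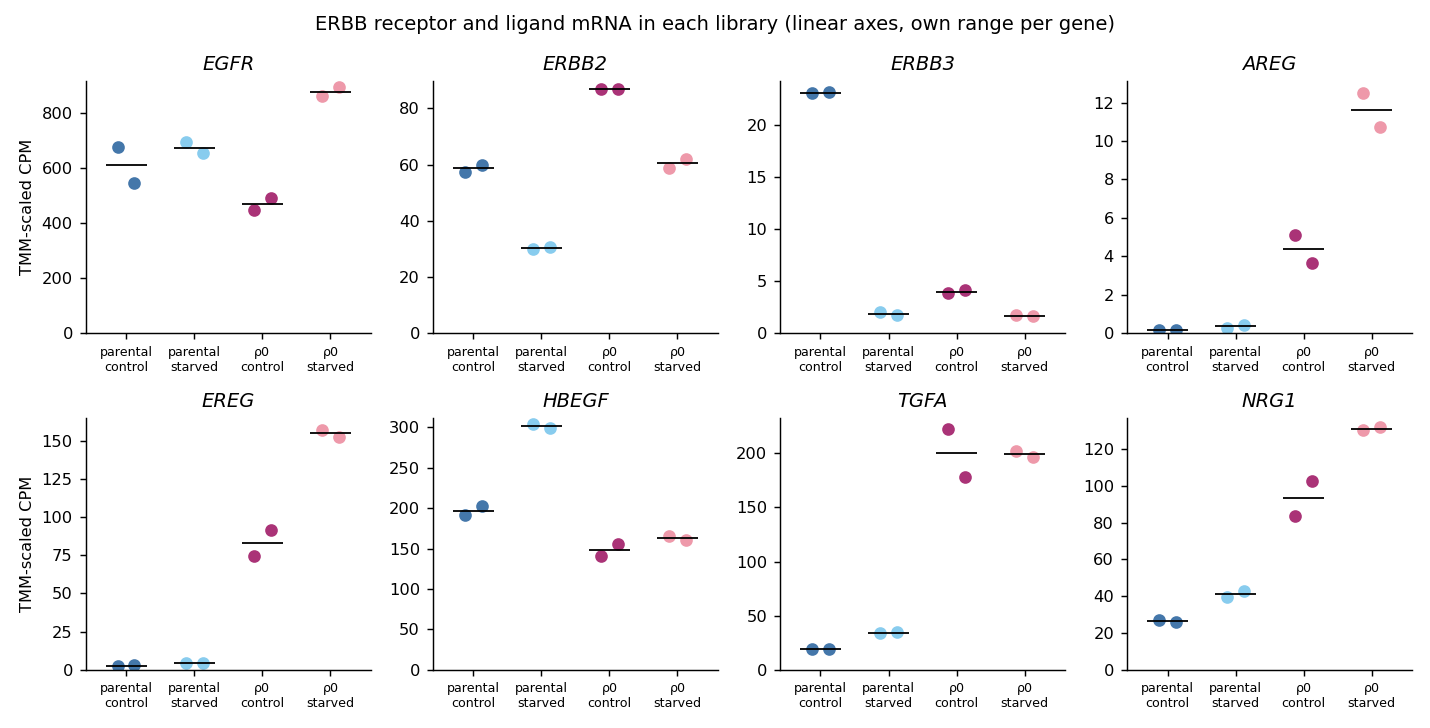
The 8 panels plot the TMM-scaled CPM of each member on a linear axis that starts at 0, with 1 point for each library in 4 groups of 2 and a line at the group mean. ERBB3 was at 23.1 and 23.2 CPM in the 2 parental controls and at 4.12 or lower in the other 6 libraries, and AREG, EREG, TGFA and NRG1 were higher in every ρ0 library than in any parental library.

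All 5 member ligands were called higher in starved parental cells, and AREG, EREG and NRG1 also in ρ0 cells. The parental call for AREG rests on few reads and was kept in 8 of 18 alternatives. HBEGF, a ligand of EGFR and ERBB4, was at 191 and 203 CPM in parental controls and at 304 and 299 after starvation. In ρ0 cells it was at 141 and 156 CPM in controls and at 165 and 161 after starvation. The parental groups were clearly apart, whereas the ρ0 groups differed by a few CPM at their nearest. HBEGF rose by 0.61 on the log2 scale in parental cells (SE 0.08, adjusted p = 4.04e-04 by edgeR). In ρ0 cells the value was 0.13 (SE 0.08, 95% interval -0.06 to 0.32, adjusted p = 0.227), which became 0.22 and was called without ρ0 control replicate 2 (adjusted p = 0.00134). The response was 0.48 lower in ρ0 cells (log2 difference -0.48, SE 0.12, adjusted p = 0.0148). That difference was not called without parental control replicate 1 or without any 1 of the 4 starved libraries.

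TGFA, an EGFR ligand, was at 19.5 and 18.8 CPM in parental controls and at 33.5 and 34.5 after starvation. Values of 223 and 178 CPM in ρ0 controls stood beside 202 and 196 in starved ρ0 cells. Starved parental libraries were above their controls, and both starved ρ0 libraries lay between the 2 ρ0 controls. TGFA rose by 0.83 in parental cells (SE 0.12, adjusted p = 5.15e-04 by edgeR) and was at -0.01 in ρ0 cells (SE 0.11, 95% interval -0.26 to 0.25, adjusted p = 0.975), a difference between the responses of -0.84 (SE 0.16, adjusted p = 0.00617). The ρ0 value depended on the control used: without ρ0 control replicate 1 it was 0.17 (adjusted p = 0.00997), and without replicate 2 it was -0.15 (adjusted p = 0.0175).

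AREG (amphiregulin) had few reads in parental cells, with 5 and 4 counts in controls and 7 and 12 after starvation, or 0.15 and 0.139 CPM and 0.277 and 0.425 CPM. In ρ0 cells it had 147 and 113 counts in controls (5.10 and 3.63 CPM) and 370 and 259 after starvation (12.5 and 10.7 CPM). Starved libraries were above controls in both lines, but the parental values rest on 12 reads or fewer. The log2 fold change was 1.27 in parental cells (SE 0.48, adjusted p = 0.0468 by edgeR) and 1.41 in ρ0 cells (SE 0.21, adjusted p = 0.00194). The parental call was lost without any 1 of the 2 parental controls, parental starved replicate 2 and the 2 starved ρ0 libraries (adjusted p up to 0.279). It was also lost with DESeq2 (adjusted p = 0.0686), limma-voom (0.0883), upper-quartile scaling (0.0627) and total counts (0.0691). The genome build of the files carries a near-identical second copy of AREG, so how its reads were assigned is uncertain.

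EREG (epiregulin) was at 2.46 and 2.95 CPM in parental controls and at 4.28 and 4.11 after starvation. The ρ0 controls were at 74.6 and 91.5 CPM and the starved ρ0 libraries at 157 and 152. The 4 groups did not overlap. EREG rose by 0.64 on the log2 scale in parental cells (SE 0.16, adjusted p = 0.00827 by edgeR) and by 0.90 in ρ0 cells (SE 0.12, adjusted p = 0.00107). Without parental control replicate 1 the parental value was 0.51 and was not called (adjusted p = 0.0615).

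NRG1, the ERBB3 and ERBB4 ligand, was at 26.8 and 26.1 CPM in parental controls and at 39.7 and 42.6 after starvation. In ρ0 cells it was at 83.6 and 103 CPM in controls and at 130 and 132 after starvation. Starved libraries were above controls in each line, and all ρ0 libraries were above all parental ones. NRG1 rose by 0.64 in parental cells (SE 0.11, adjusted p = 0.00151 by edgeR) and by 0.49 in ρ0 cells (SE 0.11, adjusted p = 0.00926), while its receptor ERBB3 fell in both. The ρ0 call was lost without starved ρ0 replicate 1 (adjusted p = 0.0516) or 2 (adjusted p = 0.0558) and in the fit of the 2 ρ0 groups alone (adjusted p = 0.0643).

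Across the interaction, 3 members (EGFR, ERBB2 and ERBB3) had a higher response in ρ0 than in parental cells and 2 (HBEGF and TGFA) a lower one, against 21.6% and 18.8% of all tested genes. For ERBB2 and ERBB3, which fell in both lines, the higher value means a smaller fall in ρ0 cells. For the other 3 ligands the difference was not called, at 0.15 for AREG (95% interval -1.37 to 1.67), 0.26 for EREG (-0.19 to 0.72) and -0.15 for NRG1 (-0.51 to 0.21). The interval for AREG is wide, and its parental libraries hold 4 to 12 counts. Without ρ0 control replicate 2 EREG was at 0.39 and was called (adjusted p = 0.0320 by edgeR), and without ρ0 control replicate 1 NRG1 was at -0.29 and was called (adjusted p = 0.00442).

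**Figure D2:**
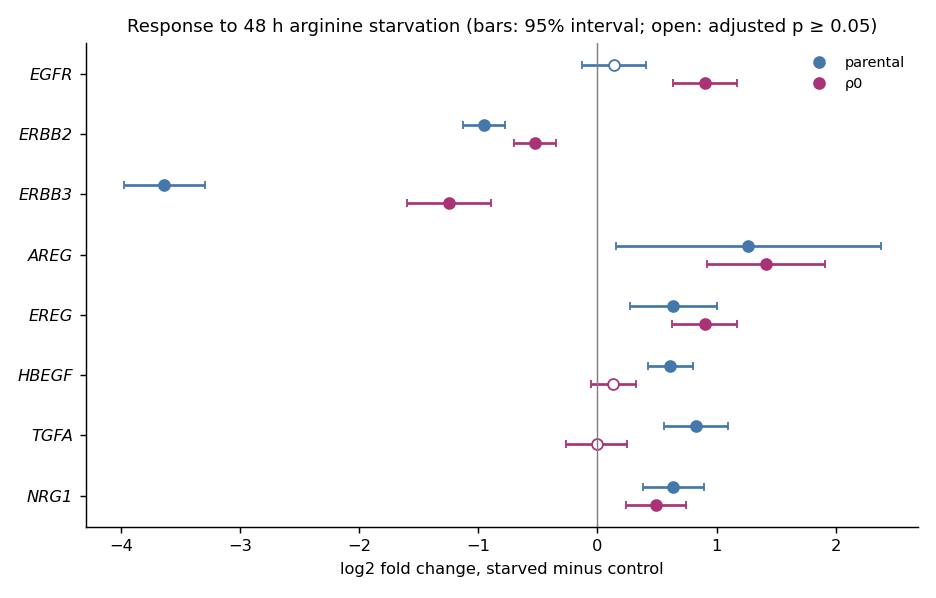
Each point is the log2 fold change of a member, starved against control, in parental (blue) and ρ0 (purple) cells, with its 95% interval from edgeR as a bar and an open symbol where the adjusted p was not under 0.05. EGFR in parental cells and HBEGF and TGFA in ρ0 cells are open, and ERBB3 has the lowest value in both lines (-3.64 and -1.24).

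AREG, EREG, TGFA and NRG1 were higher in ρ0 than in parental cells in both media, and HBEGF was lower. In control medium 5 members were called higher in ρ0 cells and 3 lower, against 30.5% and 31.8% of all tested genes. After starvation 6 were higher and 1 lower, against 32.9% and 33.5%. The members' median log2 difference was 1.19 in control medium and 1.33 after starvation, beside -0.01 over all tested genes in each. The ρ0 control library pair, with its larger spread, enters the first of these comparisons. For the 5 tested family genes outside the members the medians were -0.74 in control medium and -1.97 after starvation. The members were chosen with earlier results known, so their counts and medians are again descriptions.

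EREG was 30.8-fold higher in ρ0 controls (log2 4.94, SE 0.15, adjusted p = 6.58e-07 by edgeR) and 36.9-fold higher after starvation (log2 5.21). AREG was 29.3-fold higher in controls (log2 4.87, SE 0.33, adjusted p = 1.85e-05), which rests on 5 and 4 reads in parental controls, and 32.4-fold higher after starvation (log2 5.02). For both genes the lowest ρ0 library was above the highest parental library. TGFA was 10.5-fold higher in controls (log2 3.39, SE 0.12, adjusted p = 1.45e-06) but 5.86-fold higher after starvation (log2 2.55). NRG1 was 3.53-fold higher in controls (log2 1.82, SE 0.11, adjusted p = 1.18e-05) and 3.18-fold higher after starvation (log2 1.67). HBEGF went the other way from these 4 ligands, 1.32-fold lower in ρ0 controls (log2 -0.41, SE 0.08, adjusted p = 0.00349) and 1.85-fold lower in starved ρ0 cells (log2 -0.88, adjusted p = 6.3e-05). Fitted on the 2 control groups alone, the first of these values was not called (adjusted p = 0.0508).

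Of the receptors, ERBB2 was higher in ρ0 cells, 1.48-fold in controls (log2 0.57, SE 0.07, adjusted p = 4.15e-04 by edgeR) and 2.0-fold after starvation (log2 1.0). ERBB3 was 5.83-fold lower in ρ0 controls (log2 -2.54, SE 0.13, adjusted p = 6.41e-06), and after starvation, when both lines were below 2 CPM, the difference was -0.15 (95% interval -0.53 to 0.23, adjusted p = 0.543). EGFR was lower in ρ0 controls (log2 -0.38, SE 0.12, adjusted p = 0.0217) and higher in starved ρ0 cells (log2 0.38, SE 0.12, adjusted p = 0.0206). With any 1 library left out both EGFR values kept their sign, at -0.53 to -0.22 in controls and 0.34 to 0.44 after starvation. Both EGFR calls were lost in some of these fits. The first was lost without parental control replicate 1 (-0.22, adjusted p = 0.147) or either starved ρ0 library and in the fit of the 2 groups alone (adjusted p = 0.104), and the second without any 1 of the 4 starved libraries (adjusted p up to 0.123).

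**Figure D3:**
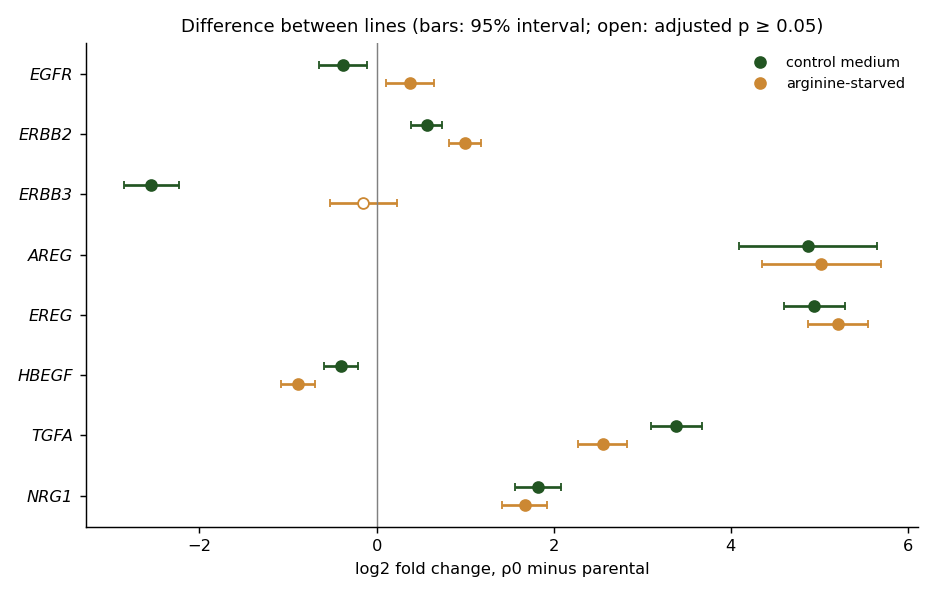
Points are log2 differences, ρ0 minus parental, of each member in control medium (green) and after arginine starvation (orange), with 95% intervals from edgeR as bars and an open symbol where the adjusted p was not under 0.05. AREG (4.87 and 5.02) and EREG (4.94 and 5.21) lie highest in both media, HBEGF lies below 0 in both, and EGFR lies on opposite sides of 0 (-0.38 and 0.38).

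To compare genes with each other, CPM were divided by the length of the longest transcript in kilobases (level per kb). By this length HBEGF had the highest level in parental controls, at 82.5 ± 3.57 per kb (SD, n = 2), followed by EGFR at 62.3 ± 9.43 and ERBB2 at 12.2 ± 0.325. NRG1 and TGFA overlapped at 4.46 and 4.44, ERBB3 was at 3.91, and EREG and AREG were lowest at 0.586 and 0.116. In starved parental cells HBEGF stood at 126 per kb and EGFR at 68.6, TGFA (7.89), NRG1 (6.93) and ERBB2 (6.32) followed without overlap, EREG was at 0.908, and ERBB3 (0.314) and AREG (0.283) overlapped at the bottom. In ρ0 controls HBEGF was at 62.3 per kb, EGFR (47.8) and TGFA (46.5) overlapped, as did ERBB2 (18.1), EREG (18.0) and NRG1 (15.7) with their neighbours, and AREG (3.52) was above ERBB3 (0.670). In starved ρ0 cells EGFR was highest at 89.4 per kb and was followed, without overlap between neighbours, by HBEGF (68.4), TGFA (46.2), EREG (33.5), NRG1 (22.1), ERBB2 (12.6), AREG (9.37) and ERBB3 (0.282). This order depends on which transcript is made. With the median transcript length 4 of the 7 neighbouring pairs kept their order in parental and in ρ0 controls, and HBEGF was highest in none of the 4 groups. EGFR was then at 182 per kb against 82.5 for HBEGF in parental controls, and in ρ0 controls TGFA (211) and EGFR (140) were above HBEGF (62.3).

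As a share of the summed level per kb of the 5 ligands, HBEGF made up 89.6% in parental controls and 88.7% after starvation, and 42.7% and 38.1% in ρ0 cells. TGFA made up 4.83% and 5.55% in parental cells and 31.9% and 25.7% in ρ0 cells, and EREG 0.635% and 0.638% and then 12.3% and 18.7%. For these 3 ligands the shares were further apart between lines than between media. The direction was the same with the median transcript length, but the sizes were not: HBEGF then made up 68.9% in parental and 17.7% in ρ0 controls, and TGFA 16.8% and 59.6%. Among the 3 receptors EGFR made up 79.3% in parental controls, 91.2% in starved parental cells, 71.7% in ρ0 controls and 87.4% in starved ρ0 cells. ERBB3 made up 5.02% in parental controls and 0.276% to 1.01% in the other groups. With the median transcript length EGFR made up 81.6% in parental and 82.0% in ρ0 controls, so the lower share in ρ0 controls was not kept, and ERBB3 made up 10.2% in parental controls and 0.577% to 2.27% in the other groups.

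**Figure D4:**
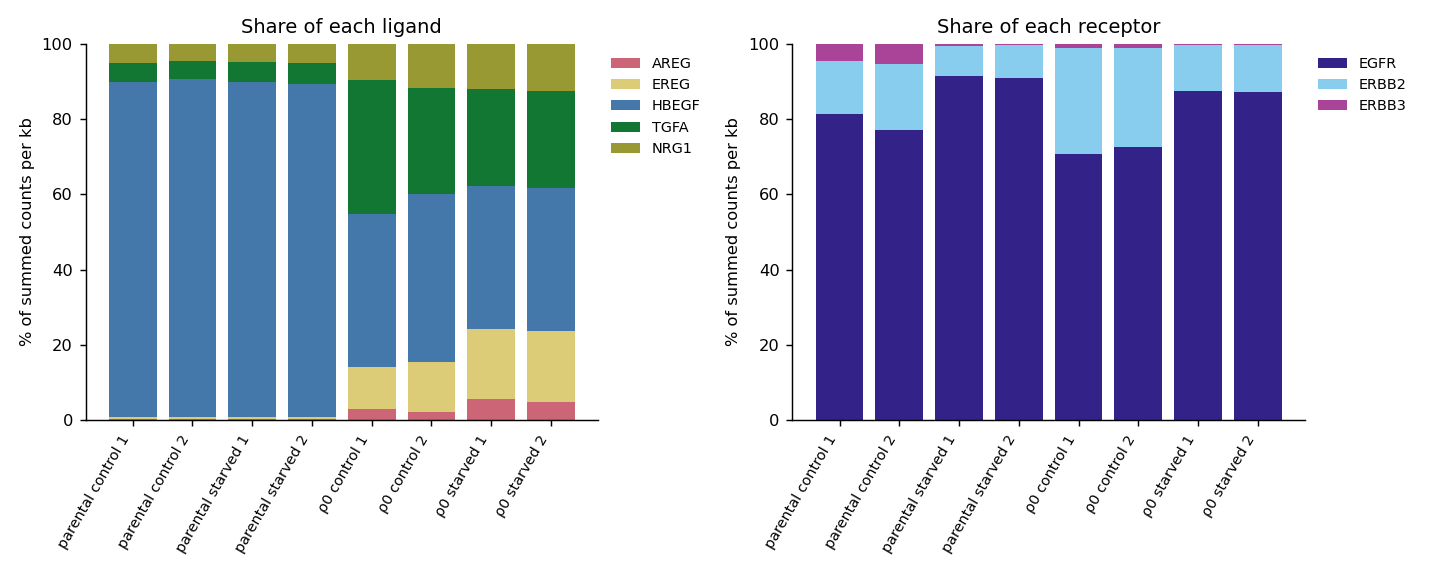
Stacked bars from 0 to 100% give each ligand (left) and each receptor (right) as a percentage of the summed level per kb in each of the 8 libraries. HBEGF fills most of every parental bar (group means 89.6% and 88.7%) and less of every ρ0 bar (42.7% and 38.1%), where TGFA and EREG take larger shares.

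The neighbours of AREG and EREG were set beside them. By the RefSeq gene order, the ligand genes EPGN, EREG, AREG and BTC follow each other. EPGN had 2 to 5 counts per library and was not tested. BTC, a ligand of EGFR and ERBB4, was higher in ρ0 controls (log2 2.40, SE 0.65, adjusted p = 0.0138 by edgeR), at 54 and 18 counts against 6 and 8. In that comparison the flanking genes did not follow the ligands: MTHFD2L was at -0.21 (adjusted p = 0.141), CXCL2, a chemokine, at -2.77 and PARM1 at -5.15. With starvation in ρ0 cells, however, CXCL2 (log2 2.02) and PARM1 (log2 1.24) rose as AREG and EREG did. In starved parental cells they did not: CXCL2 fell (log2 -1.33, adjusted p = 1.79e-04 by edgeR) and PARM1 was not called (log2 -0.17, adjusted p = 0.338). Next to ERBB2, GRB7, an adaptor that binds it, fell with starvation in parental cells (log2 -2.20) and in ρ0 cells (log2 -1.02) and was higher in ρ0 controls (log2 1.81), each in the direction of ERBB2. MIEN1 fell in parental cells (log2 -1.23) and in ρ0 cells (log2 -0.47) and was not called between controls (log2 0.22, adjusted p = 0.120 by edgeR). PGAP3 fell in parental cells (log2 -1.46) and was higher in ρ0 controls (log2 0.82). Its starvation value in ρ0 cells was not called (log2 -0.08, adjusted p = 0.717). TCAP, a further neighbour, rose with starvation in both lines (log2 1.23 and 1.46), and IKZF3 rose in ρ0 cells (log2 2.48) and was lower in ρ0 controls (log2 -2.61), each against the direction of ERBB2. These neighbours were chosen after their values were seen.

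Likeness of pattern was measured as the Pearson correlation of log2 CPM, with 0.5 added to each CPM, over the 8 libraries. It was taken with each tested gene at a mean of 10 CPM or more. The parental AREG libraries were at 0.139 to 0.425 CPM, below the added 0.5, which makes the differences among them smaller. Since the 8 libraries form 4 groups, high correlations are common, and they are given without a test. EREG was most like TRAF1 (r = 0.9996), FAM174A and SLC31A1, and 370 of 9950 genes reached 0.95. AREG was most like TIMP1, HKDC1 and PTPRK (r of 0.997 each), and TGFA most like TMEM127, G6PC3 and CD2AP. NRG1 was most like DDX3X, IFITM10 and NFE2L2, and HBEGF most like ZNF48, CSNK1D and GGA2. ERBB2 was most like ATP6V0E2, ANXA1 and STARD3, the last of which is a gene of the same region as ERBB2. ERBB3 was most like ARHGAP19, MVK and ARL6IP4. EGFR had the least common pattern, with HIPK3, ZNF507 and LMLN nearest (r = 0.975) and 7 genes at 0.95 or above, against 144 to 451 for the other members. Within the family EREG followed AREG (r = 0.984), TGFA (0.981) and NRG1 (0.981), while HBEGF and ERBB2 were opposed (r = -0.96).

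The other receptor and ligands had at most 234 counts in any library. ERBB4, the remaining receptor, had 37 and 28 counts in parental controls, 2 and 7 after starvation, and 0 or 1 in ρ0 libraries. It fell in starved parental cells (log2 -2.61, adjusted p = 0.00252 by edgeR) and was lower in ρ0 than in parental controls (adjusted p = 5.94e-04), where each ρ0 control had 1 count and a fold would rest on those single reads. EGF itself had 100 and 88 counts in parental controls and 5 and 0 after starvation, and 234 and 41 in ρ0 controls, a pair that lay far apart. Of the 7 genes of this list 5 were tested. In parental cells 3 fell with starvation (EGF, ERBB4 and NRG2) and the other 2 were not called, against 30.4% of all tested genes higher and 35.5% lower. In ρ0 cells 1 fell (NRG4, log2 -1.51, with 14 and 28 counts in controls and 8 and 5 after starvation). The other 4 were not called there, against 19.2% of all tested genes higher and 22.1% lower.

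Of 7 genes for ligand release, the proteases that shed the precursors and the iRhom proteins with their partner that control ADAM17, 1 rose and 3 fell in starved parental cells, against 30.4% and 35.5% of all tested genes. In starved ρ0 cells 1 rose and the other 6 were not called, against 19.2% of all tested genes higher and 22.1% lower. ADAM17, the main sheddase of AREG, EREG, HBEGF and TGFA, was at 109 and 99.9 CPM in parental controls and at 90.0 and 84.6 after starvation, and at 94.4 and 58.2 CPM in ρ0 controls and 139 and 136 after starvation. It rose in ρ0 cells (log2 0.85, SE 0.20, adjusted p = 0.0119 by edgeR) and was at -0.26 in parental cells (adjusted p = 0.276), and the responses differed (log2 1.11, adjusted p = 0.0171). FRMD8, the iRhom partner, rose in parental cells (log2 0.59) and ADAM12 fell (log2 -1.27). ADAM10 was 1.27 higher on the log2 scale in ρ0 controls and ADAM12 was at -3.23. After starvation 6 of the 7 were higher in ρ0 than in parental cells and 1 was lower, while in control medium 3 were higher and 1 lower. Over all tested genes these shares were 32.9% and 33.5%, and 30.5% and 31.8%.

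Of 12 tested regulators of ERBB receptors, listed as attenuators, 7 rose and 3 fell in starved parental cells, against 30.4% and 35.5% of all tested genes. Whether each of them lowers ERBB signalling in these cells was not tested. In ρ0 cells 8 rose and 1 fell, against 19.2% and 22.1%. Their median log2 fold change was 0.32 and 0.37, beside -0.07 and -0.02 over all tested genes. ERRFI1 (MIG6), an inhibitor of the EGFR kinase, was at 500 and 457 CPM in parental controls and at 1066 and 1053 after starvation. Values of 468 and 431 CPM in ρ0 controls stood beside 1890 and 1882 in starved ρ0 cells. It rose by 1.15 on the log2 scale in parental and by 2.07 in ρ0 cells, and the responses differed (log2 0.92, SE 0.12, adjusted p = 0.0015 by edgeR), in the same direction as EGFR. LRIG3, a transmembrane regulator of ERBB receptors, went in opposite directions, at -0.88 in parental and 1.31 in ρ0 cells (difference 2.19, adjusted p = 2.04e-04). CBLB, a ubiquitin ligase that targets EGFR, rose in ρ0 cells (log2 1.5) and was at 0.26 in parental cells (adjusted p = 0.063). PTPN1, a phosphatase that acts on EGFR, rose in parental cells (log2 0.29) and fell in ρ0 cells (log2 -0.26). SH3KBP1, an adaptor of receptor uptake, had the largest fall in parental cells (log2 -1.03).

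Of 20 adaptor and PI3K genes, 10 rose and 5 fell in starved parental cells, against 30.4% and 35.5% of all tested genes. In ρ0 cells 5 rose and 4 fell, near the 19.2% and 22.1% of all tested genes. GAB1, a docking protein downstream of EGFR, had the largest rise in parental cells (log2 1.32) and GRB7 the largest fall. In ρ0 cells SOS1, which activates RAS, had the largest rise (log2 0.60) and PIK3R3, a regulatory subunit of PI3K, the largest fall (log2 -1.04). Of 11 genes of the MAPK cascade, 4 rose and 4 fell in parental cells, near the 30.4% and 35.5% of all tested genes, and 3 rose and 4 fell in ρ0 cells, against 19.2% and 22.1%. NF1, a brake on RAS, rose most in both lines (log2 1.52 and 0.74). ARAF, a RAF kinase, had the largest fall in parental cells (log2 -1.69) and MAPK3, which encodes ERK1, in ρ0 cells (log2 -1.0).

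Of 16 genes that ERK signalling is known to induce, 10 rose and 3 fell in starved parental cells, against 30.4% and 35.5% of all tested genes. In starved ρ0 cells 9 rose and the other 7 were not called, against 19.2% higher and 22.1% lower. Their median log2 fold change was 0.58 and 0.57. MYC rose in both, from 588 and 590 CPM to 3102 and 3154 in parental cells and from 132 and 186 to 634 and 637 in ρ0 cells (log2 2.41 and 2.0, adjusted p = 1.71e-05 and 1.82e-04 by edgeR). DUSP5, an ERK phosphatase, had the largest rise in ρ0 cells (log2 2.17) and rose by 0.67 in parental cells. The other ERK phosphatases of the list differed between lines: DUSP6 was at -1.16 in parental and 0.75 in ρ0 cells, and DUSP4 at -2.31 and 0.14 (adjusted p = 0.147). IER3 likewise fell in parental cells (log2 -0.72) and rose in ρ0 cells (log2 0.58). The immediate early genes FOS and EGR1 rose in parental cells (log2 2.81 and 3.77) and were at -0.03 and -0.45 in ρ0 cells without a call. EGR1 was at 6.42 and 26.2 CPM in the 2 ρ0 controls, which stood far apart. In control medium 3 of the 16 genes were higher and 10 lower in ρ0 than in parental cells, against 30.5% and 31.8% of all tested genes, with a median log2 difference of -0.94 beside -0.01 over all tested genes. MYC had the largest of these falls (log2 -1.89). In these same control libraries AREG, EREG, TGFA, NRG1 and ERBB2 were higher in ρ0 cells, and EGFR, HBEGF and ERBB3 were lower. After starvation 7 of the 16 genes were higher and 5 lower in ρ0 than in parental cells, against 32.9% and 33.5% of all tested genes.

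**Figure D5:**
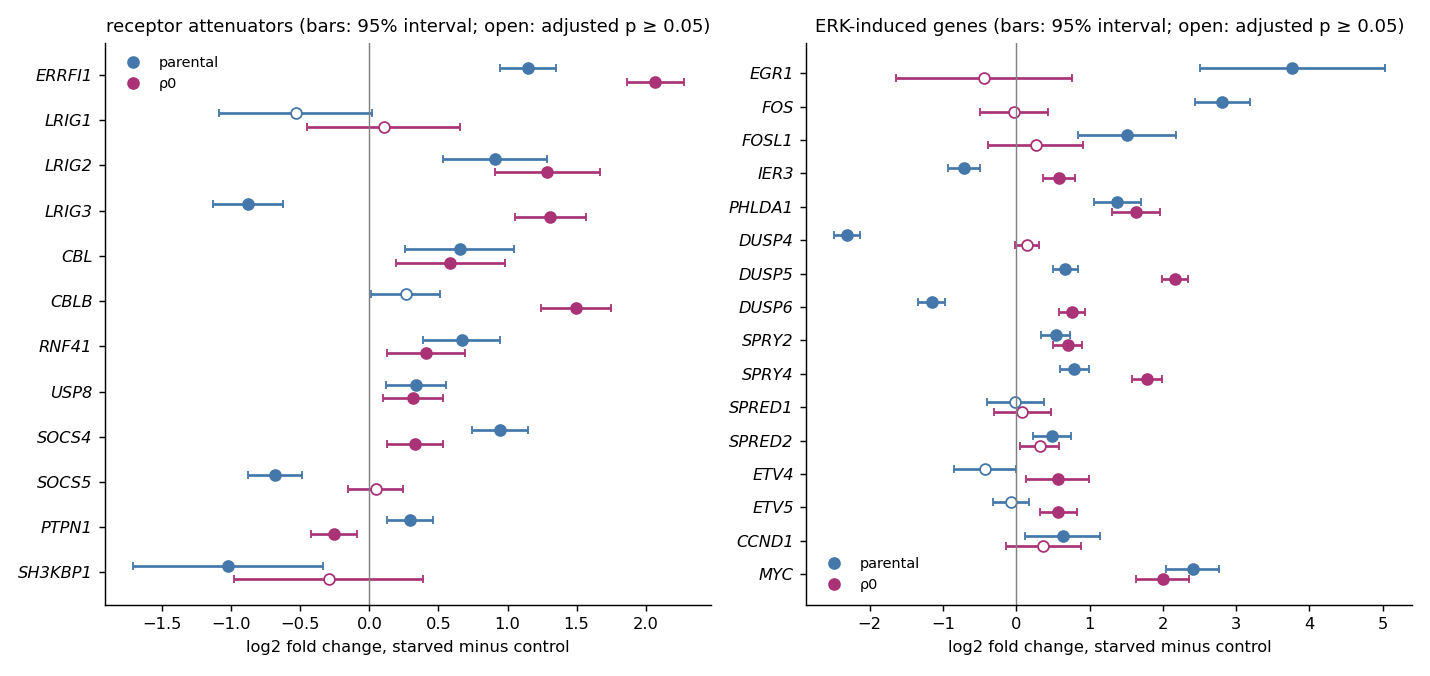
Log2 fold changes, starved against control, are plotted for parental (blue) and ρ0 (purple) cells. The tested genes are those listed as receptor attenuators (left) and ERK-induced genes (right). Bars are 95% intervals from edgeR, and open symbols mark an adjusted p not under 0.05. LRIG3, DUSP6 and IER3 lie on opposite sides of 0 in the 2 lines, and ERRFI1 lies above 0 in both (1.15 and 2.07).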

How the data were processed

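RNA was sequenced from 8 libraries, grouped by their labels. The authors deposited 1 table of unnormalized read counts, with a gene symbol in each line. The submitters' processing notes name Bowtie, Partek and hg19, with versions, annotation and strand setting not given in the sources used here. In R 4.3.3, genes were kept by edgeR's filterByExpr (15262 of 23393), scaled by TMM and fitted with edgeR 4.0.16's quasi-likelihood test over all 8 libraries, with 1 mean per group (4 residual degrees of freedom, a prior of 3.40, and a biological coefficient of variation of 12.4%). Adjusted p-values are Benjamini-Hochberg over all tested genes, and a gene was called under 0.05. SE was obtained from the log2 fold change and the F statistic (their ratio, with F under a square root), and intervals are 95%. DESeq2 1.42.0, limma 3.58.1, other scalings, filters, thresholds and left-out libraries were alternatives. The script was tested on simulated counts. Level per kb used the longest GRCh38 transcript of the symbol. RefSeq promoters (GRCh38.p14) matched 6 of 8 members, and their coordinates and the RefSeq gene order refer to that build, not to the hg19 of the counts.

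Members and lists were chosen with earlier results of these data known. Genes to name were all members, the largest rise and fall past the test in each list, list genes whose direction differed by the interaction, and the 3 genes most like each member. Some list genes that met this rule, mainly in the line and interaction comparisons and the marker lists, are not printed. A few further genes of the lists and the neighbours were named after their values were seen.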

Additional observations from a re-analysis of the deposited data

Results flagged for a closer look

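The response to arginine starvation differed between ρ0 and parental cells for 5 members by the interaction in edgeR's quasi-likelihood test. The log2 difference, ρ0 minus parental, was 0.76 for EGFR, 0.43 for ERBB2, 2.39 for ERBB3, -0.48 for HBEGF and -0.84 for TGFA. ERBB3 had fallen to 1.62 to 1.98 CPM in all 4 starved libraries, from 23.1 and 23.2 CPM in parental controls and 3.82 and 4.12 CPM in ρ0 controls. TGFA rose from a parental control level about 10.5-fold below that of ρ0 controls. For EGFR and TGFA the 2 libraries of one control group lay further apart than the 2 starved libraries of either line, namely 677 and 546 CPM for EGFR in parental controls and 223 and 178 CPM for TGFA in ρ0 controls. The part of this spread in the differences was not tested beyond leaving out each library.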

How the results depend on the processing

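With a log2 fold change above 1 or below -1 required as well, members called higher and lower were 1 and 1 for starvation in parental cells, 1 and 1 in ρ0 cells, and 1 and 0 for the interaction, 1 was lower in ρ0 controls and 0 in starved ρ0 cells. At an adjusted p under 0.01, 1 was lower in the interaction. With the 2 control groups alone, 1 was lower in ρ0 cells. Leaving out 1 library at a time, the members called higher in starved parental cells were 3 to 6, and those higher and lower in the interaction 1 to 4 and 1 to 3. With the median transcript length 4 neighbouring pairs kept their order in parental and in ρ0 controls. The sign changed for EGFR in starved parental cells with total counts (-0.0215), and leaving out 1 library gave -0.01145 (without parental control replicate 2) to 0.304. It changed for TGFA in starved ρ0 cells with DESeq2's size factors (0.0029), no filter (0.0186), DESeq2 (0.0030), limma-voom (0.0019) and the 2 groups alone (0.0133), and leaving out 1 library gave -0.147 to 0.165, above 0 without ρ0 control replicate 1 or ρ0 starved replicate 2. It changed for the AREG interaction without parental starved replicate 1 and without ρ0 control replicate 2 (-0.11 and -0.10, in a range of -0.109 to 0.498). The causes were not tested. Over all members' values, 673 alternatives kept direction and call, 57 lost a call, 6 gained one and 11 changed sign.

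The replicate numbers share only a number (deviations correlated at -0.10 to 0.06). With a replicate block, 5 members were higher and 2 lower in starved parental cells and no call on a member changed. All-gene counts higher and lower at the added fold threshold were 1940 and 3380 of 4637 and 5423 (starved parental cells), 644 and 1250 of 2937 and 3371 (starved ρ0 cells), 2074 and 2644 of 4662 and 4847 (ρ0 controls), 2858 and 2557 of 5024 and 5120 (starved, ρ0 against parental) and 2026 and 1011 of 3295 and 2872 (interaction). At an adjusted p under 0.01 they were 1726 and 1974 in starved ρ0 cells and 1862 and 1387 in the interaction, and with the 2 ρ0 groups alone 1411 and 1574. Leaving out 1 library gave 1579 to 4825 higher and 1557 to 4959 lower in starved ρ0 cells, and 1961 to 5331 and 1473 to 4946 in the interaction. Total counts moved the median of all genes in starved parental cells to -0.23, and upper-quartile scaling to -0.19. Depth limits AREG in parental cells, ERBB4, EPGN and NRG3.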
